A study of Mus musculus with 6 samples.

Results

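Bone morphogenetic protein (BMP) and hedgehog signalling in jejunal crypts was followed through 10 genes: the ligand genes Ihh, Bmp2 and Bmp4, the receptor genes Bmpr1a and Ptch1, the inhibitory SMAD genes Smad6 and Smad7, and the target genes Id1, Id2 and Id3. They were chosen by name, and every probe set annotated to exactly 1 of these symbols was taken, which gave 20 of the 45037 probe sets on the array (10 of 18193 named genes). Crypt epithelium of the jejunum, the middle stretch of the small intestine, came from 3 Sox9-deficient mice (KO 1 to KO 3) and 3 wild-type littermates (WT 1 to WT 3), all C57BL/6 and 3 months of age. Each mouse gave 1 single-colour Affymetrix array, and the study asked which genes are regulated by Sox9, a transcription factor of the crypt base. The labels name no Cre driver or allele for the deficiency, no sex and no litter. Values are log2 intensities made by GCRMA, a method that normalizes arrays together and pulls dim probe sets toward a common floor.

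Hedgehog ligands are secreted by the gut epithelium and received by PTCH1 on the mesenchyme beneath it, whose cells answer through GLI transcription factors and in turn make BMPs. BMP ligands bind receptors such as BMPR1A, which phosphorylate SMAD proteins; these enter the nucleus and switch on Id genes, whose products block helix-loop-helix transcription factors, and the inhibitory SMAD genes, which close a feedback loop. In the intestine BMP activity is strongest toward the villus and is held down around the crypt base by secreted antagonists, and it restrains stem cell division.

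Promoter sequence is shown for the ligand genes Ihh and Bmp4 and for a target and a feedback gene of the pathway, because SMAD, GLI and SOX factors act through DNA sites. RefSeq windows (GRCm38.p6) matched 7 of the 10 members, all but Bmp2, Smad7 and Id1, and 4 motifs were searched on both strands: GTCTAGAC, a palindromic SMAD site; GGCGCC, the core of a GC-rich BMP element; AACAAT, a SOX site; and GACCACCCA, a GLI site. No motif contains another. Capitals mark the matches in these 250 bases before the annotated start, 5′ to 3′ on the gene's strand; the Smad6 sequence runs 4 bases past the start to complete a site. Ihh lies at chr1:74951673-74951922, Bmp4 at chr14:46390670-46390919, Id2 at chr12:25096093-25096342 and Smad6 at chr9:64022056-64022309, all on the minus strand.
Ihh: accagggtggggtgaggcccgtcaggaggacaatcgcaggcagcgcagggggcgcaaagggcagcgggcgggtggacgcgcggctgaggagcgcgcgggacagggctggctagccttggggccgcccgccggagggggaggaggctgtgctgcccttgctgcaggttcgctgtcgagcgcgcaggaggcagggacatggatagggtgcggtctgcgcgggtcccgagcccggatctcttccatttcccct
Bmp4: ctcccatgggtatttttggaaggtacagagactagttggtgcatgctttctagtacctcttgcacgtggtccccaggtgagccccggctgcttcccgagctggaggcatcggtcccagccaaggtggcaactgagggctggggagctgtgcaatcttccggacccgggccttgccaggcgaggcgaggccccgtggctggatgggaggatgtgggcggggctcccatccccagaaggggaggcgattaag
Id2: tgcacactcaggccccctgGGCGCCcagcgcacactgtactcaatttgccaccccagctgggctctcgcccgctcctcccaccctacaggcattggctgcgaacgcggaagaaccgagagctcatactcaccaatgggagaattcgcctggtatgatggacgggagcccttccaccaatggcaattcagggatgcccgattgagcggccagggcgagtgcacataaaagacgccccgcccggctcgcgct
Smad6: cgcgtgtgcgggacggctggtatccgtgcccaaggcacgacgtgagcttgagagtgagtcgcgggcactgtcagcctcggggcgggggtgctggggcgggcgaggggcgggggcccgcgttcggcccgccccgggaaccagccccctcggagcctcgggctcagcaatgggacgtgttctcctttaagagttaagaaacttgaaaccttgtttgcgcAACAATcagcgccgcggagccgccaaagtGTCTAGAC

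The Smad6 window held the SMAD palindrome across the start (first base at -4) and a SOX site whose first base lies at -33. Of 32851 windows of 300 bases that reach 50 bases past the start, 0.213% held GTCTAGAC, and Smad6 was the 1 of the 7 members with it. In the 250 bases before the start, AACAAT occurred in 9.42% of windows, GGCGCC in 9.59% and GACCACCCA in 0.225%. GGCGCC was present in Id2 (first base at -231), Bmpr1a (-198) and Ptch1 (-161), while the Ihh, Bmp4 and Id3 windows held none of the 4 motifs. These are matches of letters and not measured binding sites.

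The genotype showed on 1 of 3 Sox9 probe sets, which read 2.44, 2.75 and 2.42 in KO and 7.61, 5.96 and 5.84 in WT. Another kept its signal in KO (5.33, 6.34 and 5.76) and read 6.23, 5.38 and 2.68 in WT; where either lies relative to the deletion is unknown here. Y-linked genes averaged 2.74, 2.65 and 2.64 in KO and 7.59, 8.19 and 2.67 in WT (mice 1 to 3 in order, as throughout), so that 2 WT mice carried Y-linked signal and no KO mouse did. Sex and genotype are thus largely confounded, and differences fitted with Y-linked signal as a covariate (Y-adjusted) are given beside the results they touch. Only WT 3 shares the lack of this signal with the KO mice, so a Y-adjusted value rests mainly on that 1 WT mouse. It is no correction for sex over 6 mice, and it is less precise (for Ihh, SE 0.46 against 0.30 unadjusted). Epithelial markers were bright on every array (list medians 14.05 to 14.69 in KO and 14.17 to 14.54 in WT), with Epcam at 14.41 to 15.09 in KO and 14.50 to 15.07 in WT. Across the table, 2 of 18108 tested probe sets passed an adjusted p of 0.05, or 0.011%, and both belong to Igfbp4, which is no member.

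For none of the 10 genes did the difference between KO and WT crypts pass the test. The values that leaned furthest were Ihh and Id2, lower in KO, and Bmp2 and Bmp4, higher in KO. Of their 20 probe sets, 15 from 9 genes had a mean of at least 4 and were tested, and 0 passed after Benjamini-Hochberg adjustment in limma, where each had an adjusted p of 0.999. At an unadjusted p under 0.05 there was 1, that of Ihh, beside 3.62% of all tested probe sets. Negative differences stood in 11 of the 15 and positive ones in 4, with a median of -0.11 against 0.03 for all tested probe sets. The 15 are not independent, since Bmpr1a, Smad7 and Id2 each hold several of them. By the brightest tested probe set, 7 of the 9 genes were negative, beside 4239 of all 9679 tested genes. All KO arrays were below all WT arrays on 3 of the 15 (Ihh, Id2 and the dimmest tested Bmpr1a probe set), beside 4.03% of all tested probe sets, and on 0 were they all above, beside 5.09%. With 3 mice a group, an exact two-sided permutation test cannot go below p = 0.1.

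**Figure D1:**
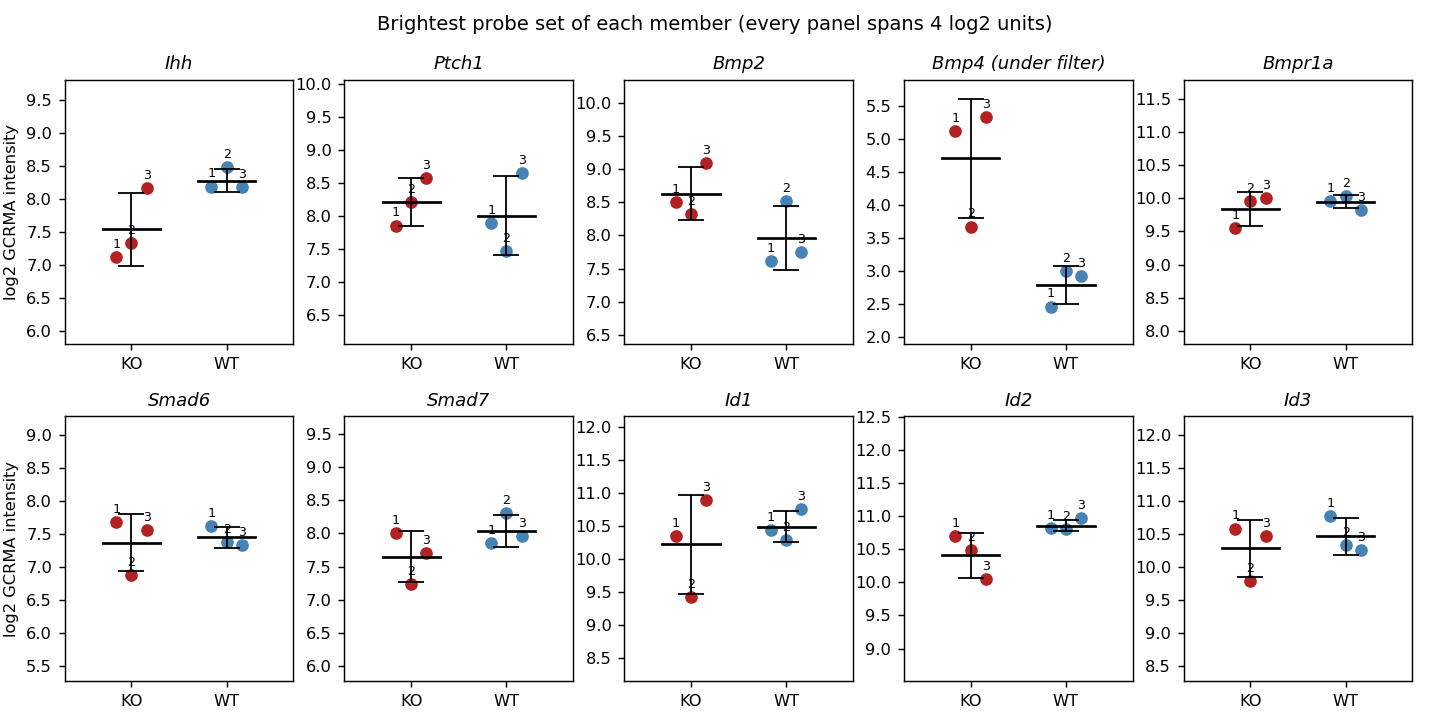
Log2 GCRMA intensity of the brightest probe set of each gene, with KO left of WT in each panel; points are mice (numbered 1 to 3), the wide line is the mean and the bar the SD. Each vertical axis spans 4 log2 units, so spreads can be compared between panels but levels cannot. The KO points of Bmp4 lie above all WT points, those of Ihh and Id2 lie below, and the other panels overlap.

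Among the ligands, Ihh and the BMP genes lay on opposite sides of 0. Ihh, the hedgehog ligand of the intestinal epithelium, read 7.12, 7.34 and 8.16 in KO and 8.19, 8.49 and 8.18 in WT. The groups did not overlap, but KO 3 nearly met WT 3, and the values spanned 1.04 among KO mice and 0.31 among WT mice. The means (± SD over 3 mice) were 7.54 ± 0.55 in KO and 8.28 ± 0.17 in WT, and they differed by -0.74 ± 0.30 (SE; 95% interval -1.46 to -0.02; limma p = 0.0447, adjusted p = 0.999; exact permutation p = 0.1). It ran from -1.05 without KO 3 to -0.53 without KO 1, and the Y-adjusted value was -0.63.

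Bmp2 encodes a BMP ligand that differentiated intestinal epithelium makes. Its probe set read 8.50, 8.32 and 9.09 in KO and 7.62, 8.52 and 7.75 in WT. WT 2 lay among the KO mice, and the other WT mice lay below all of them. The difference was 0.67 ± 0.32 (SE; 95% interval -0.10 to 1.44; limma adjusted p = 0.999), 0.44 without KO 3, 0.95 without WT 2 and 0.93 when Y-adjusted. Markers of villus enterocytes, which a crypt preparation can carry along, had list medians of 13.59, 13.99 and 14.27 in KO and 13.22, 14.32 and 13.98 in WT. Of 9 measured, 7 had a positive difference and 0 passed the test, and Apoa4 was the 1 gene with all KO arrays above all WT arrays (14.87 to 15.25 in KO, 13.66 to 14.79 in WT). WT 1, the lowest array for Bmp2, was also the lowest for this list, and the part of villus cells in the Bmp2 difference was not tested.

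Bmp4 encodes a BMP ligand made chiefly by the intestinal mesenchyme. Its probe set read 5.12, 3.67 and 5.32 in KO and 2.46, 3.00 and 2.92 in WT. All 3 KO arrays lay above all WT arrays, by 1.91 on the log2 scale (means ± SD over 3 mice of 4.70 ± 0.90 in KO and 2.79 ± 0.29 in WT), and KO 2 stood nearer to the WT mice than to the other KO mice. The mean of 3.75 left this probe set below the filter, so it has no main test; with no filter limma gave p = 0.0135 and an adjusted p of 0.948 (SE 0.50; exact permutation p = 0.1). The WT values lie near the array medians of 2.91 to 2.99, where GCRMA gathers dim probe sets, so the size of the step there is uncertain. Among the 26929 probe sets under the filter, the KO arrays were all above the WT arrays in 0.72%, and in 5, Bmp4 included, by at least this difference. Many of these probe sets lie at the floor and hardly vary between arrays, and the threshold is Bmp4's own difference. The counts therefore do not measure how unusual Bmp4 is, and among tested probe sets the share with all KO arrays above was 5.09%. The Bmp4 difference was 1.60 without KO 3, 2.42 without KO 2 and 1.82 when Y-adjusted.

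Markers of the usual source of Bmp4 were at the floor. Of 13 mesenchymal and muscle markers, 12 were under the filter in all, with list medians of 2.61 to 2.70 in KO and 2.65 to 2.67 in WT. The collagen gene Col1a1 read 2.61 to 2.70 in KO and 2.65 to 2.67 in WT, the same values as these medians, so it adds nothing to them. The receptor gene Pdgfrb, under the filter too, read 3.63, 3.12 and 3.83 in KO and 3.08, 2.87 and 3.11 in WT (difference 0.51). Other markers of the list showed no such rise: Pdgfra differed by only 0.03, Acta2 by -0.04 and Vim by -0.38. Vim was the 1 marker above the filter (7.37 to 7.91 in KO, 7.22 to 8.31 in WT), and leukocytes express it too. The log2 of the summed level of the list, in which Vim weighs most, was 7.93 to 8.36 in KO and 7.84 to 8.64 in WT. All 6 endothelial markers and the 4 measured enteric neuron and glia markers were under the filter. In bulk samples, fewer cells of a type and less RNA per cell cannot be told apart.

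**Figure D2:**
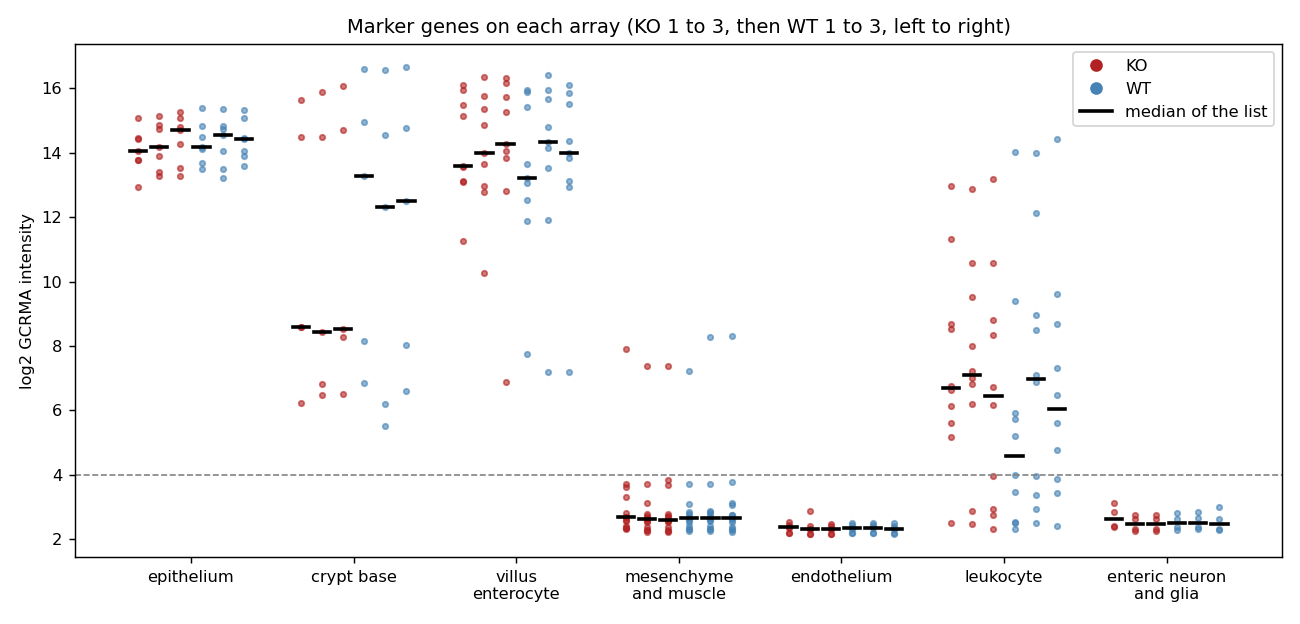
Log2 GCRMA intensity of marker genes (1 point per gene, its brightest probe set) on each array, grouped by cell type, with KO arrays left of WT arrays and black bars for list medians; the dashed line is the filter at 4. Mesenchymal, endothelial and neural markers lie below the filter apart from Vim, and leukocyte medians run from 6.44 to 7.11 in KO and 4.59 to 6.98 in WT.

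Neither receptor gene differed by more than the error between mice. Bmpr1a, the type I receptor through which the crypt epithelium receives BMP, has 6 probe sets, of which 5 were tested. The brightest read 9.55, 9.96 and 10.01 in KO and 9.96, 10.04 and 9.83 in WT, a difference of -0.11 ± 0.20 (SE; 95% interval -0.58 to 0.36; limma adjusted p = 0.999), with 0.04 without KO 1 and 0.00 when Y-adjusted. The other 4 tested differed by -0.10 to 0.14, and the untested one stayed at 2.02 to 2.04 in KO and 2.03 to 2.04 in WT. One of them had non-overlapping groups, at 5.70 to 5.74 in KO and 5.74 to 5.95 in WT, where the arrays all but touch and the difference is -0.10 (exact permutation p = 0.1). The intervals of all 5 lay between -0.58 and 0.59, which is the size of change that these mice still allow.

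Ptch1, the hedgehog receptor and itself a target of the pathway, read 7.86, 8.21 and 8.58 in KO and 7.90, 7.47 and 8.66 in WT on its 1 tested probe set. The groups overlapped fully, with the lowest and the highest array both in WT. The difference was 0.21 ± 0.35 (SE; 95% interval -0.64 to 1.05; limma adjusted p = 0.999), -0.06 without WT 2, 0.53 without WT 3 and -0.47 when Y-adjusted. The other 2 Ptch1 probe sets stayed at the floor on all arrays (2.31 to 2.71 in KO, 2.34 to 2.70 in WT), so a single probe set carries what is known here of this gene. Gli1, the transcription factor gene that hedgehog switches on in receiving cells, read 2.19 to 2.24 in KO and 2.21 to 2.23 in WT, and the mesenchymal target genes Foxf1 and Foxl1 were also at the floor, with probe sets between 2.09 and 2.54 in both groups.

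The 95% intervals of both inhibitory SMAD genes included 0, and KO 2 was their lowest array. Smad6, which encodes a feedback inhibitor of BMP receptors and has the SMAD palindrome printed above, read 7.68, 6.88 and 7.56 in KO and 7.63, 7.38 and 7.34 in WT. KO 1 and KO 3 lay within or just above the WT range and KO 2 below it. The difference was -0.07 ± 0.26 (SE; 95% interval -0.69 to 0.54; limma adjusted p = 0.999), and 0.17 without KO 2 and 0.03 when Y-adjusted. Smad7, which also blocks TGF-beta receptors, read 8.00, 7.23 and 7.71 in KO and 7.85, 8.31 and 7.96 in WT on its brighter probe set. Its other probe set read 7.59, 6.98 and 7.73 in KO and 7.37, 7.92 and 7.83 in WT. The differences were -0.39 ± 0.25 and -0.27 ± 0.27 (SE; limma adjusted p = 0.999 each), and that of the brighter one was -0.18 without KO 2 and -0.28 when Y-adjusted.

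Id2 lay lower in KO on both tested probe sets, while Id1 and Id3 depended on KO 2. Id2, whose product restrains helix-loop-helix factors and is also made by lymphocytes, read 10.70, 10.49 and 10.05 in KO and 10.82, 10.80 and 10.97 in WT on the brighter probe set. All KO arrays lay below all WT arrays there, with KO 1 closest to them (difference -0.45 ± 0.22, SE; 95% interval -0.97 to 0.07; limma adjusted p = 0.999; exact permutation p = 0.1). The other probe set read 9.04, 8.53 and 8.71 in KO and 9.34, 8.94 and 9.47 in WT. Here KO 1 lay above WT 2, and the difference was -0.49 ± 0.23 (SE; limma adjusted p = 0.999). The brighter probe set differed by -0.26 without KO 3, -0.59 without KO 1 and -0.55 when Y-adjusted, and the third Id2 probe set was flat at 3.45 to 3.51 in KO and 3.49 to 3.51 in WT.

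Id1, a direct BMP target, read 10.34, 9.42 and 10.89 in KO and 10.43, 10.28 and 10.76 in WT. The KO mice held both the lowest and the highest value. The difference was -0.27 ± 0.38 (SE; 95% interval -1.19 to 0.65; limma adjusted p = 0.999), or 0.13 without KO 2, -0.61 without KO 3 and -0.54 when Y-adjusted. Id3, its paralogue, read 10.58, 9.78 and 10.47 in KO and 10.77, 10.33 and 10.26 in WT. KO 1 and KO 3 lay inside the WT range, and the difference of -0.18 ± 0.28 (SE; limma adjusted p = 0.999) became 0.07 without KO 2 and -0.01 when Y-adjusted.

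KO 2 was the lowest array on 7 of the 15 tested probe sets, or 46.7%, and on 12.8% of all tested probe sets, a pattern described after the values were seen. The 7 were Id1, Id3, Smad6, both Smad7 probe sets, the dimmer Id2 probe set and a Bmpr1a probe set. Relative to the mean of the 6 arrays KO 2 stood at -0.93 for Id1, -0.59 for Id3, -0.53 for Smad6 and -0.61 and -0.59 for Smad7, while no other array lay lower than -0.20 on any of these 5. Bmp4 was likewise lowest among the KO mice in KO 2. In its Gapdh 3′ minus 5′ difference, a measure of RNA quality, KO 2 (0.58) lay within the range of the others (0.91 and 0.37 in KO, 0.61, 0.65 and 1.75 in WT).

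**Figure D3:**
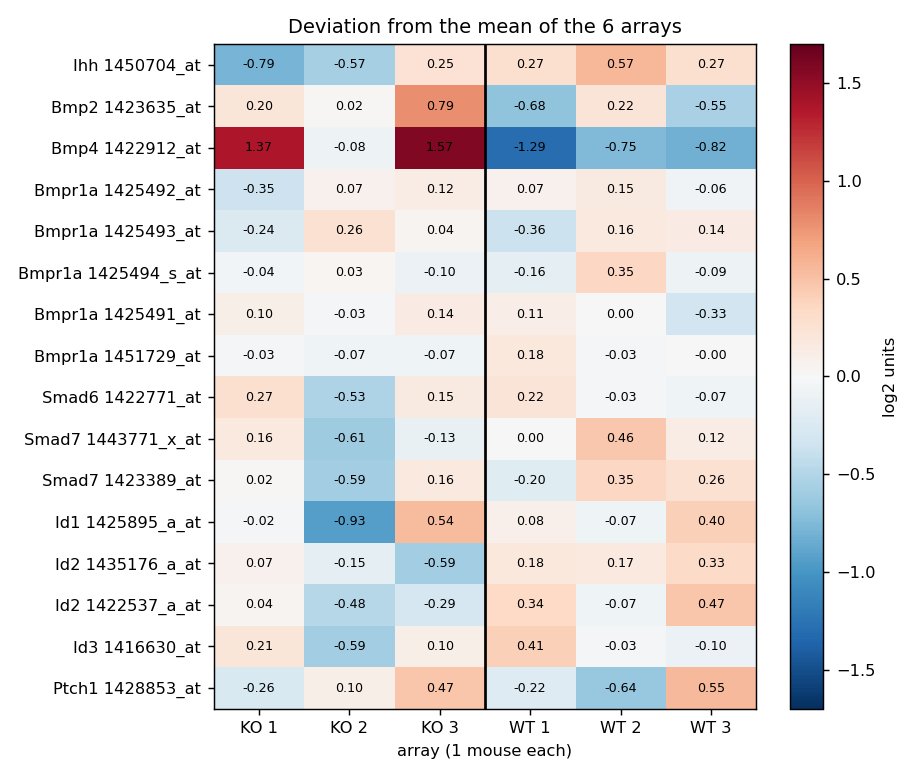
Deviation of each array from the mean of the 6 arrays, in log2 units, for the 15 tested probe sets and for Bmp4, with KO arrays left of the black line and WT arrays right of it. KO 2 is the lowest array in the rows of Id1, Id3, Smad6 and Smad7, Ihh is lowest in KO 1, and Bmp4 is highest in KO 3.

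The genes nearest to Ihh in profile, by root mean square difference over the 6 arrays after centring, were Ptprj (0.10), a receptor tyrosine phosphatase gene, Micall2 (0.10) and Eif4ebp2 (0.13), which encodes a translation repressor. Each was compared among 6885 genes of sufficient spread. For Id1 they were the linker histone gene H1f2 (0.17), the kinase gene Pim3 (0.18) and the syndecan gene Sdc4 (0.19) among 7201. Taking the closest probe set of each gene, Smad7 (0.30), Smad6 (0.33) and Id3 (0.35) came at ranks 65, 99 and 151 for Id1, and Bmp2 (0.65) at rank 5249. With so many candidates and 6 arrays, close profiles arise readily, and these ranks are a description.

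Other genes of the pathways were taken from a list of 73 that includes the members, of which 68 were on the array and 29 were tested by their brightest probe set. In limma 0 of the 29 passed, and 0.0103% of all 9679 tested genes did. An unadjusted p under 0.05 occurred in 3 of the 29 (Ihh, Rgmb and Bambi) and in 3.93% of all tested genes. The median difference was -0.07, and 0.04 over all tested genes. In 5 of the 29 the KO arrays were all below the WT arrays and in 0 above, beside 3.99% and 5.54% of all tested genes. Besides Ihh and Id2 these were Rgmb, Id4 and Acvr1.

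BMP receptors and their partners held the widest differences outside the members. Rgmb, which encodes a membrane-anchored BMP co-receptor, read 7.33, 7.01 and 7.62 in KO and 9.03, 8.06 and 8.70 in WT. The groups lay apart, and the difference was -1.28 ± 0.30 (SE; 95% interval -2.00 to -0.56; limma p = 0.00438, adjusted p = 0.871; exact permutation p = 0.1), or -1.06 without WT 1 and -1.43 when Y-adjusted. Its 4 tested probe sets differed by -0.86 to -1.49, and in 3 of them the groups did not overlap. Bambi, which encodes a receptor-like inhibitor lacking a kinase domain, read 7.08, 4.14 and 6.44 in KO and 8.99, 7.03 and 8.31 in WT. KO 1 and WT 2 overlapped by a narrow margin and KO 2 stood far below, so that the difference of -2.23 ± 0.84 (SE; limma adjusted p = 0.999) was -1.35 without KO 2. Acvr1, a type I receptor gene, read 7.98 to 8.02 in KO and 8.07 to 8.19 in WT, so the groups lay close to each other, with a difference of -0.13.

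Targets and transducers gave small values. All 4 tested BMP target genes were negative, with a median of -0.36. Id4, the fourth Id gene, read 5.90, 5.87 and 5.01 in KO and 5.96, 5.93 and 6.22 in WT (difference -0.45, or -0.15 without KO 3; limma adjusted p = 0.999). Of the 9 tested genes for SMADs, their ubiquitin ligases and corepressors, differences ran from -0.39 to 0.26, including Skil, a SMAD corepressor gene, at -0.25 (-0.40 without KO 3, -0.12 without KO 1, Y-adjusted -0.07) and Smad5, which transduces BMP signals, at 0.26 (0.11 without WT 3, 0.42 without WT 1, Y-adjusted 0.55). Their median was -0.05, and 8 of the 9 were negative, beside 4239 of all 9679 tested genes. Several of these signs depend on the probe set. Over the tested ones, Smad1 differed by -0.06, -0.01 and 0.05, and Smad5 by 0.26 and -0.08. Ski differed by -0.05 and 0.10, and Smurf2 by -0.05, 0.02 and 0.36. All tested probe sets of Smad4 and Smad7 were negative. Secreted antagonists, which keep BMP from its receptors, were mostly dim: of 11 on the array, 9 were under the filter. Grem1, made by muscle cells around the crypt, read 2.98 to 3.10 in KO and 2.99 to 3.02 in WT, and Nog 2.29 to 2.34 in KO and 2.32 to 2.34 in WT. Of those tested, Nbl1 differed by 0.17 (-0.11 without KO 1). Of 8 BMP ligand genes on the array 2 were tested, with a median of 0.44. On the hedgehog side, Shh, the other ligand gene of the gut, stayed below the filter (3.36, 3.57 and 4.16 in KO and 3.54, 3.41 and 4.83 in WT on its highest probe set). Smo, the transducer that PTCH1 holds in check, differed by 0.61 (0.19 without WT 2, Y-adjusted 0.25), and Sufu, an inhibitor of GLI factors, by 0.47 (0.28 without WT 1, Y-adjusted 0.03). All values of Sufu in KO (6.09 to 6.19) lay close to WT 3 (6.13), the WT mouse without Y-linked signal, whereas WT 1 and WT 2 read 5.29 and 5.59. WT 3 also had the highest Gapdh 3′ minus 5′ difference (1.75). With 1 such mouse, sex, RNA quality and variation between mice cannot be told apart.

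**Figure D4:**
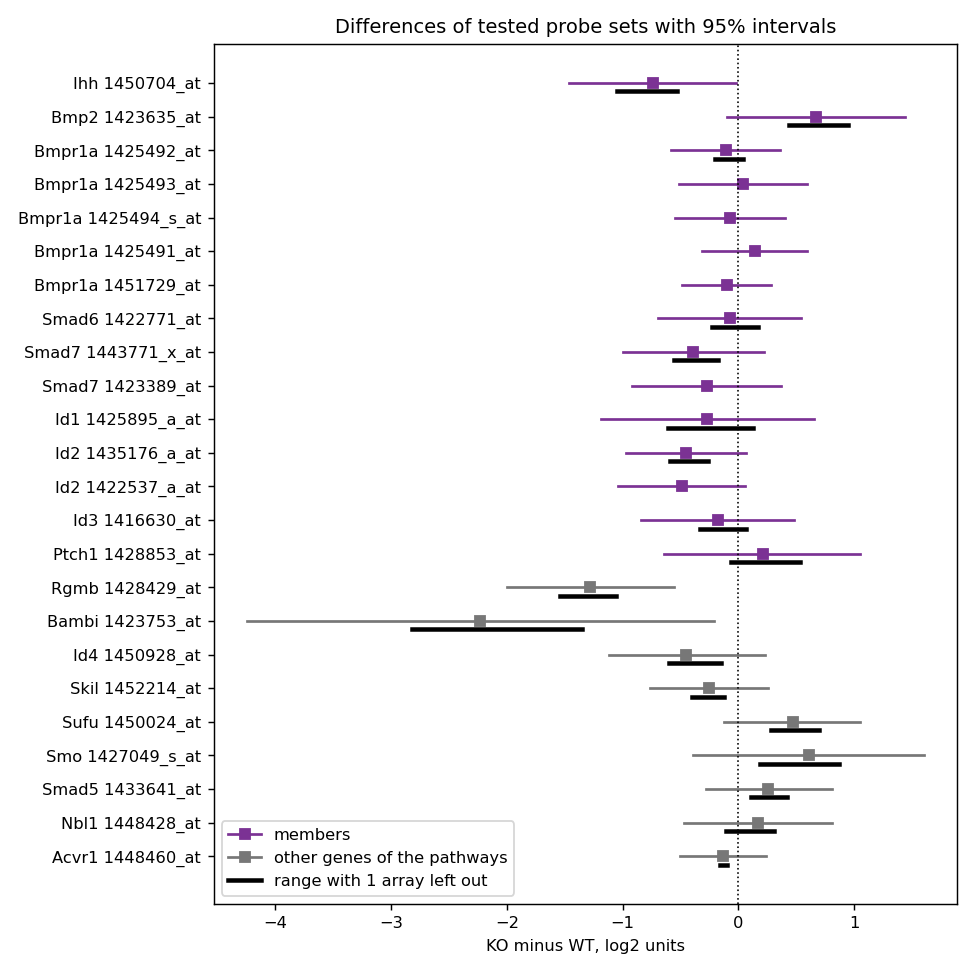
KO minus WT in log2 units (squares) with 95% intervals from limma for the 15 tested member probe sets (purple) and the brightest probe set of the other named pathway genes (grey); black bars give the range of the difference when 1 array is left out, for the brightest probe set of each gene. The intervals of Ihh, Rgmb and Bambi end short of 0, and the others cross it.

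Markers of crypt base cells and of leukocytes are set beside these values. At the crypt base, Mmp7, which encodes the Paneth cell protease that activates defensins, read 8.60, 6.82 and 8.52 in KO and 13.28, 12.30 and 12.50 in WT (limma adjusted p = 0.156). KO 2, lowest for Id1, Id3, Smad6, Smad7 and Bambi, was the lowest for Mmp7 too. Of the 5 measured crypt base markers 0 passed. In 2 all KO arrays were below all WT arrays and in 1 above, beside 3.99% and 5.54% of all tested genes. The differences were -4.71 for Mmp7, -0.75 for Lyz1, -0.20 for Olfm4, 0.08 for Lgr5 and 0.97 for Ascl2. List medians were 8.60, 8.42 and 8.52 in KO and 13.28, 12.30 and 12.50 in WT. Each is 1 gene's value, that of Ascl2 in KO 2 and of Mmp7 elsewhere, so they mostly restate Mmp7. Leukocyte markers, relevant because lymphocytes express Id2, had list medians of 6.69, 7.11 and 6.44 in KO and 4.59, 6.98 and 6.05 in WT, and 0 of 8 tested passed. Of these 8, 7 had a positive difference, and the exception was the brightest, the myeloid lysozyme gene Lyz2, at 12.98, 12.88 and 13.18 in KO and 14.02, 13.99 and 14.42 in WT. The log2 of the summed level, in which Lyz2 weighs most, was 13.36 to 13.53 in KO and 14.10 to 14.52 in WT. Itgam and Cd68 of the same list were under the filter, with positive differences of 0.10 and 0.77. The crypt base marker Lyz1, another lysozyme gene, was also lower in KO (15.63 to 16.07) than in WT (16.57 to 16.65). Which cells gave the Lyz2 signal was not tested, so it is no measure of leukocyte number. The pan-leukocyte gene Ptprc read 8.68 to 9.53 in KO and 5.73 to 8.67 in WT, opposite in direction to Id2. The part of these cells in the values above was not tested.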

How the data were processed

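RNA of jejunal crypts from 6 mice was hybridised to 1 array each. The authors deposited log2 intensities per probe set, made with GCRMA per the submitters' processing notes, which also name limma but no version or setting. All 6 columns belong to these samples. Control probe sets (64) were left out. Probe sets with a mean log2 value of at least 4 (18108) were fitted as KO minus WT with limma 3.58.1 in R 4.3.3 (lmFit, eBayes, two-sided, no covariates), and p-values were adjusted by Benjamini-Hochberg over all of them at 0.05. The fit was tested on simulated data with known changes. Recovery was required only for the largest of these, which exceeded every member difference. That check therefore does not show that changes of the members' size would be found. Depth is not defined for arrays, whose number limits the precision. Gene symbols come from the platform annotation. Lists used the brightest tested probe set of a gene.

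The members and lists were chosen with earlier results of these data known. Named were all member probe sets, the 4 other pathway genes of smallest p in each direction, pathway genes whose groups did not overlap, and the 3 genes nearest to Ihh and to Id1 among those with at least 50% of its SD; markers and a few genes at the floor were chosen as context after their values were seen. Alternatives were a replicate block, other filters, normalizations, priors, array weights, probe set rules, covariates for Y-linked signal and for RNA quality (Gapdh), and leaving out each array.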

Additional observations from a re-analysis of the deposited data

How the results depend on the processing

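The count of member probe sets past the limma threshold and that of pathway probe sets were 0 as reported and in all 18 alternatives, and the lowest adjusted p of any member in any of them was 0.707. Over all probe sets, the 2 calls became 0 with no filter, with a replicate block, with unmoderated variances, and with Y-linked signal or the Gapdh 3′ minus 5′ value as a covariate, 1 with a filter at a mean of 6, 4 with quantile normalization, 7 after averaging probe sets by gene, 3 with 1 probe set per gene, 11 with array weights, and from 0 (without WT 1 or WT 2) to 16 (without WT 3) with an array left out. Of 334 alternative differences for the 19 named genes, 322 kept their sign and side of the threshold and 12 changed sign. Many could not have changed sign. A replicate block, other filters, another prior, unmoderated variances and 1 probe set per gene leave the difference itself as it was. The side of the threshold was hardly at risk either, since the lowest adjusted p of these genes in the main fit was 0.871. The count of 322 is therefore no measure of robustness. The 13 values of Bmp4, which had no main test, were counted as kept by another rule. For them the sign had to hold and the difference had to move by less than 1 SD within groups. Sign changes came with array weights for Bmpr1a (0.01) and Nbl1 (-0.05), and with the Y-linked covariate for Bmpr1a (0.00), Smad6 (0.03) and Ptch1 (-0.47). With an array left out, Bmpr1a ran from -0.20 to 0.04, Smad6 from -0.23 to 0.17, Id1 from -0.61 to 0.13, Id3 from -0.33 to 0.07, Ptch1 from -0.06 to 0.53 and Nbl1 from -0.11 to 0.31; the cause was not tested. Same-numbered KO and WT arrays had deviations correlated at -0.0492, -0.285 and 0.0251 over probe sets, and the replicate block changed no call among the members. Bmp4 had no test under settings that keep the filter, and Id4, Sufu and Nbl1 had no value with the filter at 6. The number of mice and the GCRMA floor limit what these arrays can show.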
